A study of Mus musculus with 29 samples.

Results

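Rasd1 encodes a small Ras-like GTPase, also called Dexras1, that was first found as a transcript induced by the synthetic glucocorticoid dexamethasone. It is 1 of the 8726 genes that the platform annotation names on the arrays, and it is represented by 1 spot on each array. It was chosen by its symbol and selected on its tumour over PBS ratio, which had been seen above 0 over the times, so its ratios are given as a description and are not tested. The study used 8-week-old female BALB/c mice, injected subcutaneously with 100000 4T-1 cells, a mouse line of mammary carcinoma, in 100 µl PBS, against mice injected with 100 µl PBS alone, and took the hypothalamus 18, 72 or 192 h later. Cells were of an established tumour line and not a spontaneous tumour, and no genotype other than the strain is given in the labels. Each array was a direct hybridization of tumour RNA against PBS RNA of the same time, and 7 of the 9 replicates described here were hybridized in both dye orientations. The ratios come from 16 of the 29 arrays and 9 of the 13 biological replicates, with 3 replicates at each of 18, 72 and 192 h. Replicate 1 at 72 h and replicate 1 at 192 h were poly(A) RNA on 1 array each, with the tumour RNA in Cy5, and the other 7 were total RNA. Whether a replicate pooled several animals is not stated, so a spread or p-value covers only these samples.

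The Rasd1 protein belongs to the Ras superfamily and binds and hydrolyses GTP, but it differs from classical Ras proteins in its long carboxy-terminal extension. It has been described as a receptor-independent activator of inhibitory G proteins, and it is drawn to neuronal nitric oxide synthase (Nos1) through the adaptor Nos1ap. With the adaptor Acbd3 and the metal transporter Slc11a2 it has been linked to iron uptake in neurons. In the hypothalamus it is expressed in the suprachiasmatic nucleus, where it takes part in the response of the circadian clock to light, and in the supraoptic and paraventricular nuclei, where the vasopressin and corticotropin-releasing neurons lie. Its promoter responds to the glucocorticoid receptor, and adrenal glucocorticoids are the end product of the hypothalamic stress axis. In the RefSeq mouse annotation (GRCm38.p6) it is Entrez gene 19416, and its nearest protein-coding neighbours are Med9 and Pemt.

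The array data themselves were uneven. A usable ratio was obtained for 14.8% to 83.0% of the spots, depending on the array, which means that both channels were above 0 and free of saturation in at least 1 of 3 scans. Both ends of this range were arrays of 18 h. With the tumour RNA in Cy5 and Cy3, replicate 5 of 18 h had 21.9% and 14.8%. Replicate 4 had 49.3% and 25.9%, and replicate 3 had 70.0% and 83.0%. At 18 h 1441 genes had a ratio in every replicate, and 4410 did when replicate 5 was left out. All 3 replicates at 18 h were on the same array print, whereas the 3 replicates at 192 h were each on a print of their own, so print and replicate cannot be told apart at 192 h. Of 15 hypothalamic marker genes 13 were on the arrays, and 12 of these gave a ratio in at least 5 replicates. The orexin gene Hcrt and the oxytocin gene Oxt were among them, and Pmch, the melanin-concentrating hormone precursor, gave none. In whole hypothalamus a difference in the share of cells that carry a transcript and a difference in the amount per cell cannot be told apart. The direction of every ratio assumes that the scanner's first channel is Cy3, the first channel of the labels, and is likely but not settled. With the channels exchanged every ratio would change sign and keep its size, so Rasd1 would lie below 0 and its ranks would count from the low end; the counts below 0 are therefore given beside those above 0.

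The Rasd1 spot had a background-corrected signal of similar size to its local background in many scans. It was recorded in 48 scans, 3 for each array, and both channels were above 0 in 27 of them. In 4 scans only the tumour channel was above 0, in 9 only the PBS channel, and in 8 neither. Among 26 scans with both channels and a listed background, the tumour channel was at a median of 1.21 times the local background (range 0.523 to 10.3) and the PBS channel at 0.796 times (range 0.384 to 3.60), after the background had been subtracted by the authors. After that subtraction the tumour channel did not exceed the listed background in 11 of these scans and the PBS channel did not in 15. A spot at 1 times the background by this measure still stood above its surroundings. At the extremes, the mean log2 intensity of the Rasd1 spot was 16.0 beside 17.6 for the median usable spot (72 h replicate 3, Cy5, scan 3). It was 20.6 beside 19.8 in scan 3 of replicate 3 at 192 h with the tumour RNA in Cy3. Its saturation factor was 1, which means that no pixel was saturated, in all 27 scans with both channels, and it is listed at 0 in 16 of the 21 scans without both.

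The gaps fell mainly on the arrays with the tumour RNA in Cy3. Of 21 scans of those arrays 6 had both channels, against 21 of 27 scans of the arrays with the tumour RNA in Cy5. At 18 h none of the 9 scans with the tumour RNA in Cy3 had both channels. Replicate 3 at 18 h had tumour intensities listed at 0 there in all 3 scans and PBS intensities of 327508, 441871 and 496123, whereas replicate 5 had tumour intensities of 135944, 133436 and 228181 and PBS intensities listed at 0. Those 2 arrays thus pointed in opposite directions, and neither gave a ratio. Replicate 4 at 18 h had a tumour intensity of 97938 in 1 scan, with PBS listed at 0 there, and both channels listed at 0 in the other scans.

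**Figure D1:**
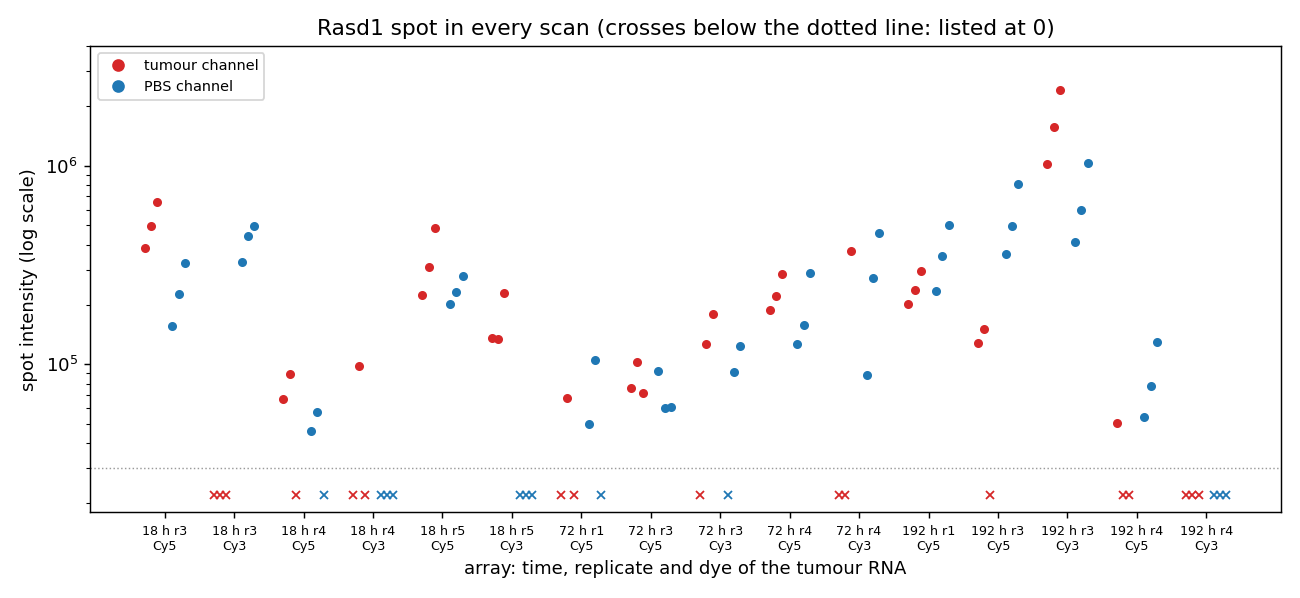
Intensity of the Rasd1 spot on a log axis in each of 3 scans of 16 arrays, tumour channel (red) left of PBS channel (blue), with the dye of the tumour RNA under each array. Crosses mark channels listed at 0, which leave all 3 arrays of 18 h with the tumour RNA in Cy3 without a ratio.

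At 18 h after injection, the Rasd1 log2 ratio of tumour over PBS was 0.41, 0.77 and 0.60 in replicates 3, 4 and 5, once the dye effect of the probe had been subtracted. The mean was 0.59 ± 0.18 (SD, n = 3), a 1.51-fold higher level in tumour than in PBS hypothalamus. Every replicate was above 0, and each rested on the array with the tumour RNA in Cy5 alone. Without the dye correction the replicates were at 0.014, 0.37 and 0.20, and the mean was 0.19, or 1.14-fold. Among 1441 genes measured in all 3 replicates at 18 h only 1 had a higher mean ratio, the ubiquitin ligase gene Cbl at 0.95 ± 1.31 (SD, n = 3; named after its value was seen), while the median gene was at -0.09 and 31.0% of the genes were above 0 (44.4% with loess within print blocks). On the other side of 0, 15 genes (1.04%) had a mean further below 0 than Rasd1 was above it. Of the 1441 genes 6.18% were above 0 in every replicate and 19.6% below 0 in every replicate. Since Rasd1 was picked for its ratio above 0, nothing is read from its rank or from its being above 0 in every replicate. The median gene was therefore below 0 at the time when the Rasd1 mean was highest.

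At 72 h the ratio was 0.071 in replicate 1, 0.16 in replicate 3 and 0.49 in replicate 4. The mean was 0.24 ± 0.22 (SD, n = 3), or 1.18-fold, so the SD was nearly as large as the mean. Replicates 3 and 4 had a ratio in both dye orientations, and replicate 1, the poly(A) sample, rested on 1 scan of its single array. Scan 1 of that array had a PBS intensity of 50315 and a tumour intensity listed at 0, and scan 3 had both channels listed at 0. The array of replicate 4 with the tumour RNA in Cy3 also rested on 1 scan. Tumour and PBS intensities there were 373697 and 458130, with the background listed at 0. Its other scans had PBS intensities of 87942 and 271833 and tumour intensities listed at 0, so they gave no ratio. Without the dye correction replicate 1 was at -0.33, and the mean was 0.11. Of 3593 genes measured at 72 h 11.1% had a higher mean and 10.5% a mean further below 0 than Rasd1 was above it, while 15% were above 0 in every replicate and 11.9% below 0 in every replicate.

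At 192 h the ratio was 0.42, 0.17 and 0.36 in replicates 1, 3 and 4, with a mean of 0.31 ± 0.13 (SD, n = 3), or 1.24-fold. Only replicate 3 had both orientations. Without the dye correction replicates 1 and 4 were at 0.018 and -0.042, and the mean was 0.049, or 1.03-fold. The mean was -0.21 over the arrays with the tumour RNA in Cy5 alone, uncorrected, and -0.0077 when the replicates of the other prints were added under their given names. Replicate 4 rested on the first scan of the array with the tumour RNA in Cy5, with tumour and PBS intensities of 50838 and 54048. The other scans of that array had PBS intensities of 77898 and 129079 and tumour intensities listed at 0, so they gave no ratio. The array of replicate 4 with the tumour RNA in Cy3 had no signal in either channel. Of 3276 genes measured at 192 h 3.48% had a higher mean and 5.13% a mean further below 0 than Rasd1 was above it, while 11.8% were above 0 in every replicate and 12.7% below 0 in every replicate.

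**Figure D2:**
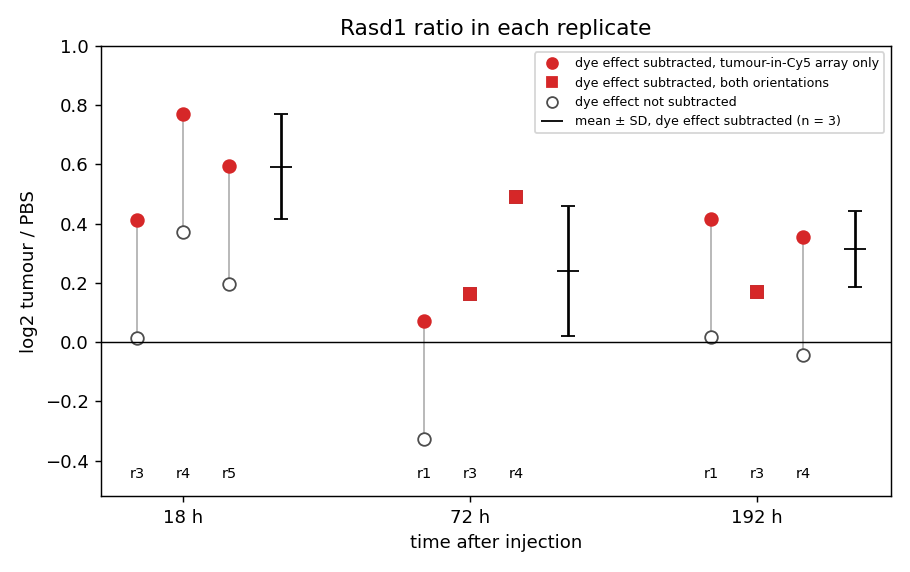
Rasd1 log2 ratio of tumour over PBS in each replicate (r, with its number) at 18, 72 and 192 h. Red symbols have the probe's dye effect subtracted, open circles have not; squares mark the 3 replicates measured in both orientations, where the subtraction cancels, and bars are the mean ± SD. The 6 circles stand higher than their open partners by 0.40.

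Over the 3 times the mean was 0.38, and Rasd1 was above 0 in 9 of 9 replicates. It was the only one of 737 genes measured in all 9 replicates with that pattern, 0.136% of them. A further 8 genes were above 0 in 8 of 9. Rasd1 was picked for a ratio above 0 over the times, so nothing is read from its being the only one. Without the dye correction it was above 0 in 7 of 9, and no gene was above 0 in all 9. The mirror pattern, below 0 in all 9, was held by 2 genes (0.271%), Nop58, a nucleolar ribonucleoprotein gene, at -0.26 ± 0.23 and Rwdd1 at -0.16 ± 0.16 (SD, n = 9 each), named after their values were seen. Of the 8 genes above 0 in 8 of 9, the closest to Rasd1 by mean were Lrg1 and Gaa, both named after their values were seen. Lrg1, a secreted leucine-rich glycoprotein, was at 0.26 ± 0.49, and Gaa, the lysosomal acid alpha-glucosidase, at 0.23 ± 0.22 (SD, n = 9 each). Dbf4, the regulatory subunit of the Cdc7 kinase and likewise named afterwards, had the only higher mean over the times, 0.64 ± 0.88 (SD, n = 9), but was above 0 in 7 of 9. By the mean at each time, 48 genes were above 0 at all 3 times, 6.51% of the 737.

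The ratio depended on the dye that labelled the tumour RNA. Before any dye correction, the 9 arrays with the tumour RNA in Cy5 had log2 ratios between -0.61 and 0.39, with a mean of -0.016 ± 0.32 (SD, n = 9) and 5 of 9 above 0. The 3 usable arrays with the tumour RNA in Cy3 had 0.48 and 0.59 at 72 h and 0.95 at 192 h, with a mean of 0.67 ± 0.25 (SD, n = 3). The orientations did not overlap.

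Replicate 3 at 192 h had the widest gap, -0.61 with the tumour RNA in Cy5 and 0.95 with it in Cy3. Replicate 3 at 72 h had -0.15 and 0.48, and replicate 4 at 72 h had 0.39 and 0.59, the latter from 1 scan. The Cy5 over Cy3 dye effect that these 3 pairs give was -0.78, -0.31 and -0.10 on the log2 scale, so that the probe read lower in Cy5. Its mean of -0.40 ± 0.35 (SD, n = 3), with a standard error of 0.20, lay further from 0 than that of most probes: 9.43% of 7701 probes had a dye effect at least as far from 0, with an SD over probes of 0.30.

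This one estimate was subtracted from the 6 replicates with a single orientation, all of 18 h included, and their SD does not hold its error. The 6 had a mean of 0.44 ± 0.24 with it, 6 of 6 above 0, and 0.038 ± 0.24 without it, 4 of 6 above 0 (SD, n = 6). The 3 replicates with both orientations need no such estimate, and their mean was 0.27 ± 0.19 (SD, n = 3), 3 of 3 above 0. Of these, replicate 4 at 72 h had only 1 usable scan with the tumour RNA in Cy3. Without the subtraction the time means were 0.19 ± 0.18 at 18 h, 0.11 ± 0.41 at 72 h and 0.049 ± 0.11 at 192 h (SD, n = 3 each), and 7 of 9 replicates were above 0. No gene of the 737 was then above 0 in all 9. With the dye effect of replicate 3 at 72 h alone, or of replicate 4 at 72 h alone, 8 of 9 were above 0, and with that of replicate 3 at 192 h alone, 9 of 9. Without replicate 3 of 192 h the mean at 18 h was 0.40. Most genes were better covered, with a median of 5 replicates in both orientations over the 737 genes, and 11.0% of them had 3 or fewer, as Rasd1 did.

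**Figure D3:**
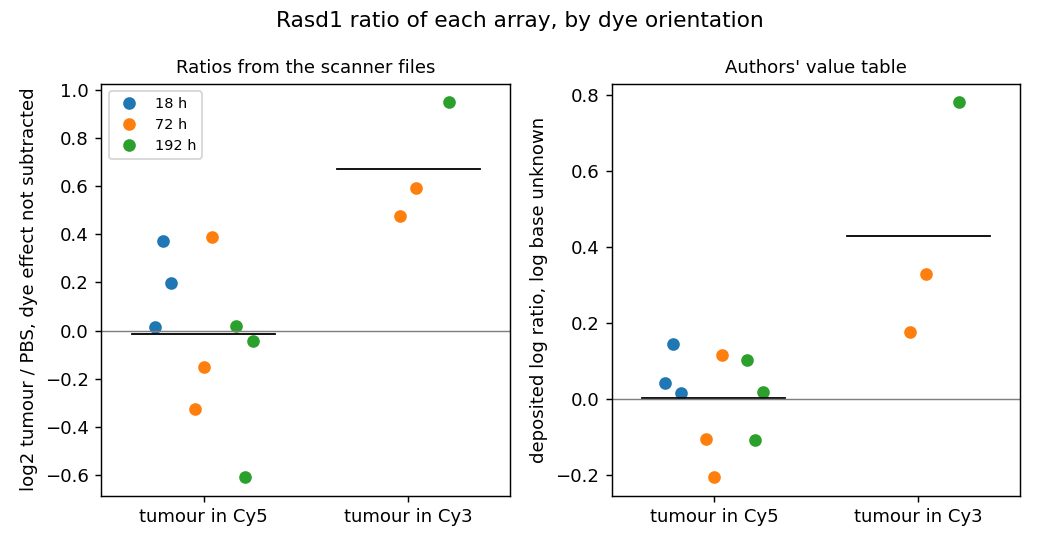
Rasd1 ratio of each usable array with the tumour RNA in Cy5 (9 arrays) or Cy3 (3 arrays), as log2 tumour over PBS before dye correction (left) and as the authors' deposited log ratio (right, log base unknown); horizontal lines are means. The 3 arrays with the tumour RNA in Cy3 lie above all 9 others in both panels.

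The authors' deposited table gave a Rasd1 value for the same 12 arrays, on a log scale whose base is unknown. At 18 h its values in the deposited table were 0.041, 0.14 and 0.015 in replicates 3, 4 and 5, each with the tumour RNA in Cy5. The authors' deposited table gave values between -0.21 and 0.14 for the 9 arrays with the tumour RNA in Cy5, of which 6 were above 0, and 0.18, 0.33 and 0.78 for the 3 with it in Cy3. The orientation gap was thus present in the authors' own values too, and 9 of the 12 were above 0.

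Where both channels were above 0, repeat scans of 1 array gave closely matching ratios on most arrays. Scans with a channel at 0 do not enter this comparison. An example is scan 3 of replicate 3 at 192 h in Cy5, with PBS at 803869 and the tumour channel listed at 0. On the 9 arrays with at least 2 usable scans the SD between scans ranged from 0.0031 to 0.44, with a median of 0.078. The widest were replicate 3 at 72 h in Cy5, with -0.57, 0.30 and -0.18 in its 3 scans, and replicate 5 at 18 h in Cy5, with -0.18, 0.20 and 0.57. The other 18 h replicates were steadier, with scans at 0.031, 0.065 and -0.053 for replicate 3 and at 0.32 and 0.43 for replicate 4. These scan values are log2 tumour over PBS before the dye effect was subtracted.

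Whether the ratio differed between the times was tested, since the gene had not been chosen for that. The difference was -0.35 (95% interval -0.80 to 0.098) for 72 h against 18 h, -0.28 (-0.73 to 0.17) for 192 h against 18 h, and 0.073 (-0.38 to 0.52) for 192 h against 72 h, in log2 units by limma. The adjusted p-values of the limma contrasts were 0.84 over 998 genes, 0.93 over 973 and almost 1 (0.9993) over 1892. No difference between times passed the test, and the intervals leave room for a change of either sign. These intervals take the subtracted dye effect as known and do not hold its standard error of 0.20. The 18 h replicates overlapped those of 72 h and of 192 h: the lowest at 18 h, 0.41, lay below the highest at 72 h, 0.49, and below the highest at 192 h, 0.42. On the single print that carried all replicates of 18 h, the means were 0.59 at 18 h, 0.33 at 72 h over 2 replicates, and 0.36 in the 1 replicate of 192 h. These values carry the dye effect shared by all 18 h replicates, so an error in it would shift the difference from 72 h.

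The comparison of tumour with PBS across all genes sets the background. No gene passed the limma test at an adjusted p of 0.05 at any time, so that 0% of the 1441, 3593 and 3276 genes were called at 18, 72 and 192 h. At an unadjusted p under 0.05 there were 86, 199 and 91 genes, and the smallest adjusted p was 0.42, 0.46 and 0.60. The 3 differences between times also called 0% of genes, with 52, 33 and 43 at an unadjusted p under 0.05.

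Other genes known to respond to glucocorticoids were measured on the same arrays. Of 24 such genes 14 were on the arrays, and 4, 4 and 6 had a ratio in all replicates at 18, 72 and 192 h. None passed the test in either direction. Of these 1 of 4, 2 of 4 and 4 of 6 were above 0, with median log2 ratios of -0.048, -0.00031 and 0.032, beside -0.091, 0.016 and -0.0020 for all genes tested. The list medians thus lay within 0.1 of 0 and, like the medians of all genes tested, below the Rasd1 mean at each time. Since Rasd1 was picked for its ratio above 0, nothing is read from its standing above the list medians. Under normexp, median centring, loess within print blocks or no dye correction they ranged from -0.24 to -0.021, from -0.050 to 0.012 and from -0.052 to 0.14, so their sign at 72 and 192 h depended on the processing.

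Mt1, a metallothionein, was above 0 at each time, with 0.11 ± 0.18, 0.20 ± 0.34 and 0.20 ± 0.38 at 18, 72 and 192 h (SD, n = 3 each). Dusp1, a phosphatase of MAP kinases, had -0.34 ± 0.29, 0.14 ± 0.26 and -0.11 ± 0.11 at those times. The transcription factor Klf9 had -0.14 ± 0.35 at 72 h and 0.040 ± 0.33 at 192 h.

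Pdk4, a kinase that inhibits pyruvate dehydrogenase, had -0.080 ± 0.12 at 18 h and -0.15 ± 0.24 at 72 h. At 192 h the cell cycle inhibitor Cdkn1a had -0.17 ± 0.25, the arrestin-domain gene Arrdc2 0.16 ± 0.29 and the hypoxia-inducible factor subunit Hif3a 0.024 ± 0.52. The lipid droplet protein gene Plin4 had -0.016 ± 0.33 at 18 h. Of these means that of Dusp1 at 18 h lay furthest from 0, and Fkbp5 was on the arrays but had no complete set of replicates at any time.

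The stress axis itself was sparsely covered. Of 15 genes of corticosteroid signalling 8 were on the arrays, and 4, 3 and 5 were measured at 18, 72 and 192 h, with 2, 2 and 4 above 0 and medians of -0.036, 0.087 and 0.12. Ncoa1, a coactivator of nuclear receptors, had -0.64 ± 0.41 at 18 h, with an adjusted p of 0.42 by limma (unadjusted 0.0019), against 0.087 ± 0.17 at 72 h and 0.0098 ± 0.075 at 192 h. Its relative Ncoa2 had 0.090 ± 0.037, 0.13 ± 0.28 and -0.075 ± 0.097. Crhr1, a receptor of corticotropin-releasing hormone, had -0.075 ± 0.054 at 18 h and -0.046 ± 0.34 at 72 h, and the chaperone Hsp90aa1, which holds steroid receptors ready for hormone, had 0.0035 ± 0.12 at 18 h and 0.12 ± 0.20 at 192 h. No member passed the test.

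Genes that work with the Rasd1 protein were few. Of 9 partner genes 5 were on the arrays and 2, 2 and 1 were measured at 18, 72 and 192 h, of which 2, 0 and 1 were above 0, with medians of 0.15, -0.15 and 0.24. The adaptor Acbd3 had 0.13 ± 0.25 at 18 h and 0.24 ± 0.30 at 192 h. Dlg4, a postsynaptic scaffold that holds neuronal nitric oxide synthase, had 0.18 ± 0.35 at 18 h and -0.27 ± 0.23 at 72 h, and the transporter Slc11a2 had -0.040 ± 0.21 at 72 h. None passed the test.

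Heterotrimeric G proteins and their regulators gave 5, 8 and 7 measured genes of 12 on the arrays, with 4, 4 and 2 above 0 and medians of 0.078, -0.0079 and -0.033. Gnai2, an inhibitory alpha subunit, had 0.21 ± 0.36, 0.030 ± 0.43 and 0.020 ± 0.17 at 18, 72 and 192 h. Gnao1, the alpha subunit most abundant in brain, had 0.078 ± 0.28, 0.028 ± 0.18 and -0.11 ± 0.21, and Gnas, the stimulatory alpha subunit, 0.022 ± 0.086, -0.14 ± 0.25 and -0.0031 ± 0.30. The beta subunit Gnb1 had 0.22 ± 0.082, -0.044 ± 0.12 and -0.033 ± 0.25. None passed the test, and the SD was larger than the mean in all but 1 of these values.

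Other members of the Ras family did not pass the test either. Of 24 listed genes 12 were on the arrays and 3, 7 and 6 were measured at 18, 72 and 192 h, with 2, 5 and 3 above 0 and medians of 0.16, 0.11 and -0.0069. Mras had 0.16 ± 0.31, -0.17 ± 0.29 and -0.13 ± 0.013 at 18, 72 and 192 h, and Rit1 -0.37 ± 0.16, 0.013 ± 0.085 and 0.038 ± 0.14. Rit2, a neuronal member, had 0.11 ± 0.38 at 72 h and 0.15 ± 0.069 at 192 h, and Rheb, an activator of mTORC1, 0.29 ± 0.36 at 18 h and 0.073 ± 0.054 at 192 h. Rasd2, the closest relative of Rasd1, was measured at 72 h only, at -0.046 ± 0.29 (SD, n = 3), and is named because of that kinship, outside the order of the list.

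Clock genes and immediate early genes, the latter reporting on neuronal activity, were measured in 1, 5 and 5 and in 3, 6 and 7 genes at 18, 72 and 192 h. Of the clock genes 1, 1 and 2 were above 0, with medians of 0.29, -0.087 and -0.034, and of the immediate early genes 1, 3 and 1, with medians of -0.19, 0.0043 and -0.20. Tef, a clock output factor, had 0.29 ± 0.13 at 18 h and -0.18 ± 0.49 at 72 h, and Clock 0.13 ± 0.051 at 72 h and -0.041 ± 0.10 at 192 h. The nuclear receptor Nr1d2 had -0.087 ± 0.27 at 72 h and -0.034 ± 0.42 at 192 h, and Per3 -0.31 ± 0.15 at 72 h.

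Among immediate early genes, Fos had 0.52 ± 0.77 at 72 h and 0.11 ± 0.92 at 192 h, and Fosb 0.14 ± 0.26 and -0.33 ± 0.58. The transcription factor Egr4 had 0.055 ± 0.14 at 72 h and -0.58 ± 0.43 at 192 h. Klf2 had -0.22 ± 0.099, -0.16 ± 0.021 and -0.20 ± 0.31 at 18, 72 and 192 h, below 0 at each time. None of either list passed the test.

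Markers of other cells and regions were largely out of reach. No pituitary marker was on the arrays, the 1 endothelial or mural marker on them had no complete set of replicates, and 1 blood cell marker at 72 h and 1 marker of choroid plexus and ependyma at 192 h were measured, the first below 0 at -0.15 and the other above 0 at 0.19. Astrocyte markers gave 0 of 1, 2 of 2 and 3 of 3 above 0 at 18, 72 and 192 h, with medians of -0.15, 0.16 and 0.062. Oligodendrocyte markers gave 1 of 2 at 72 h and 2 of 2 at 192 h, with medians of -0.15 and 0.16, and microglia and macrophage markers 1 of 2 at 192 h, with a median of -0.038. Neuronal markers gave 1 of 2, 2 of 4 and 1 of 3, with medians of -0.031, -0.0023 and -0.0018.

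Hypothalamic markers gave 1 of 2, 3 of 6 and 5 of 7 above 0 at 18, 72 and 192 h, with medians of -0.029, 0.019 and 0.30. Oxt had 0.095 ± 0.17, 0.18 ± 0.38 and 0.17 ± 0.27, and Hcrt -0.044 ± 0.30 at 72 h and 0.30 ± 0.33 at 192 h. Foxb1, a transcription factor of the mammillary region, had 0.082 ± 0.10 at 72 h and 0.54 ± 0.37 at 192 h, and Gnrh1 -0.078 ± 0.10 and -0.25 ± 0.16. Markers of neighbouring brain regions gave 1 of 1, 2 of 3 and 3 of 3, with medians of 0.22, 0.051 and 0.18. None of these markers passed the test. The part of dissection or of cell composition in the Rasd1 ratio was not tested.

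The genes whose ratios ran most like that of Rasd1 over the 9 replicates were found by Pearson correlation among 736 genes, as a description. All share arrays, prints and the same kind of dye correction with it, and the median correlation was -0.070. The Rasd1 profile used here has the dye effect of -0.40 subtracted in the 6 replicates with a single orientation. Which replicates carry such a subtraction differs between genes, and its part in the likeness was not tested. The highest were Rad23b, a carrier of ubiquitinated proteins (r = 0.84), Cers4, a ceramide synthase (0.81), Smg9, of the nonsense-mediated decay machinery (0.80), Gnb1 (0.75) and Gps2, a corepressor subunit (0.71). Rad23b was above 0 in 4 of 9, with means of 0.10 ± 0.15, -0.17 ± 0.21 and -0.078 ± 0.18 at 18, 72 and 192 h, and Cers4 in 6 of 9, with 0.12 ± 0.21, -0.067 ± 0.19 and 0.12 ± 0.099 (SD, n = 3 each). The lowest were Sipa1l3, a GTPase-activating protein homologue (r = -0.90), Pcp4, a calmodulin-binding peptide of neurons (-0.86), and Smim10l1 (-0.83). Pcp4 had -0.16 ± 0.072, 0.45 ± 0.39 and 0.095 ± 0.25, the reverse order of 18 and 72 h to that of Rasd1.

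**Figure D4:**
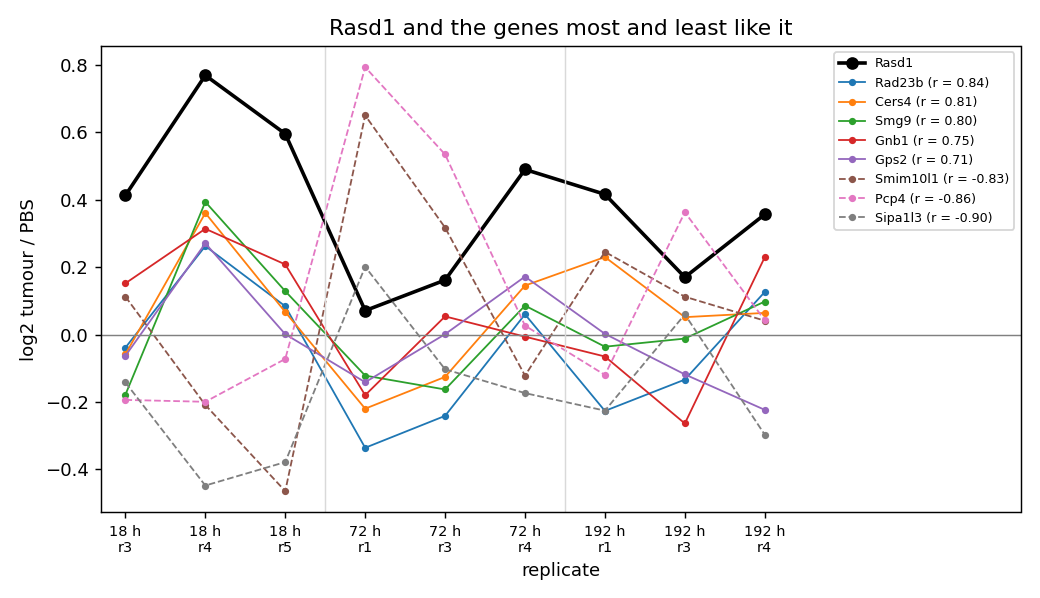
Log2 ratio of tumour over PBS in the 9 replicates for Rasd1 (black), the 5 genes with the highest correlation with it (solid) and the 3 with the lowest (dashed), with r over 9 replicates in the legend. Lines only join the points of a gene; the 5 solid lines are highest in replicate 4 at 18 h, as Rasd1 is.

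Genes beside Rasd1 on its chromosome gave few ratios. Of the 3 nearest protein-coding genes on each side, Med9 was not on the arrays, and Cops3 and Srebf1 were on them but had no complete set of replicates. Nt5m had -0.032 at 18 h and 0.021 at 192 h, Pemt 0.039 at 192 h, and Rai1 -0.22 at 72 h and -0.17 at 192 h. All of these means lay below that of Rasd1 at the same time, but so did those of most genes. Only 0.069%, 11.1% and 3.48% of the genes measured at 18, 72 and 192 h had a higher mean. Rasd1 was picked for its ratio, so nothing is read from this comparison.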

How the data were processed

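Spot values were taken from 3 scanner files for each of 29 arrays. Per the file headers, the intensity of each spot was already corrected for local background by the authors' image software, and background intensities and a saturation factor, a fraction, are listed beside it. The value tables that the authors deposited hold 1 centred log ratio per spot and were read as a score, since their log base is not stated; they correlated at 0.40 to 0.92 with the ratios computed here and turn sign with the labelled orientation. Genes were named from the platform annotation of each array print. Prints 1 and 2 were left out, because spot brightness matched by name correlated at only 0.063 to 0.13 with the other 3 prints, against 0.59 to 0.64 among those.

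Spots at 0 in a channel or with a saturated pixel were left out, and a loess curve (span 0.3, 4 iterations; R 4.3.3, limma 3.58.1) was removed from every scan. Scans were averaged, the mean Cy5 over Cy3 effect of each probe over replicates measured in both orientations was subtracted, and arrays of a replicate were averaged. Of several probes of a gene the brightest was kept, and genes with a value in all 3 replicates of a time were tested there, with 1 limma model (lmFit, eBayes) sharing the spread over 5184 genes, two-sided, with Benjamini-Hochberg adjustment. The number of arrays limits the precision. The scripts were tested on simulated ratios.

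Rasd1 and the gene lists were chosen with earlier results of these data known. Named genes are Rasd1, the 5 most and 3 least correlated with it over the replicates, and, in list order among those measured at most times, up to 8 glucocorticoid-responsive genes and 4 of any other list; exceptions are stated where they occur. No Rasd1 sequence was used here. The alternatives covered the background correction, the normalization, the dye effect, single scans, saturated and dim spots, the authors' values, left-out replicates, RNA kind, prints and the replicate number as a block.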

Additional observations from a re-analysis of the deposited data

How the results depend on the processing

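The count of genes past the test stayed 0 at each time under the alternatives run. The Rasd1 ratio moved by more than its SD over replicates as follows. With normexp it was 1.03 at 18 h and 0.64 over the times, with median centring 0.18 at 192 h, and with loess within print blocks 0.35 at 18 h. Without the dye effect it was 0.19 at 18 h, 0.049 at 192 h and 0.12 over the times. Scan 1 alone gave 0.87 at 18 h and 0.63 at 192 h, and scan 2 alone 0.47 at 72 h. The authors' values gave 0.31 at 18 h in their own units, with their dye effect subtracted in the same way. Their log base is unknown, and their SD over spots was 0.30 to 0.70 times that of the ratios computed here, depending on the array. The value of 0.31 therefore cannot be set against the SD over replicates. All 13 replicates with the given names gave 0.57 at 72 h and -0.0077 at 192 h. Leaving out 1 replicate gave 0.40 to 0.74 at 18 h, 0.18 to 0.33 at 72 h, 0.20 to 0.41 at 192 h and 0.26 to 0.45 over the times.

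The alternatives of this paragraph were chosen after seeing the data. The dye effect of replicate 4 at 72 h alone gave 0.30 at 18 h and 0.12 at 192 h, and that of replicate 3 at 192 h alone 0.97, 0.57 and, over the times, 0.64. Replicates with both orientations only gave 0.17 at 192 h and have no value at 18 h. Arrays with the tumour RNA in Cy5 alone, uncorrected, gave 0.19, -0.031 and -0.21 at 18, 72 and 192 h and -0.016 over the times. The cause of the shifts in both paragraphs was not tested, except that those named for the dye effect differ by construction.

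The difference of 72 against 18 h stayed below 0, between -0.58 and -0.052 (adjusted p 0.74 to 0.99, limma). That of 192 against 18 h was below 0 except with the authors' values, at 0.0030 (adjusted p over alternatives 0.73 to 0.9996). That of 192 against 72 h turned to -0.012 with normexp, -0.072 with median centring, -0.059 without the dye effect, -0.58 with all 13 replicates, -0.062 with total RNA only and -0.18 with the Cy5 arrays alone, and ranged from -0.011 to 0.22 with 1 replicate left out; the lowest was without replicate 1 of 72 h. No difference passed the test under any of them. With the replicate block the 3 differences were -0.33, -0.26 and 0.073, with adjusted p of 0.74, 0.84 and 0.9995. Same-numbered replicates deviated together weakly (correlations -0.095 to 0.22 over 7 pairs, 2 above 0.1), so the numbers were not taken as pairs. However, 2 of 3 replicates at 192 h correlated best with their own number at 72 h. Whether same-numbered replicates share a factor was not tested. Scan 3 alone, scan 1 alone at 72 h, scan 2 alone at 192 h and the filter on dim spots left Rasd1 without a value.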
